A study of Gallus gallus with 28 samples.

Results

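The genes described here are the ribosomal proteins RPS25 and RPS4Y1 and the elongation factor subunit EEF1B2, measured in chicken (Gallus gallus) liver. Their members were all spots that the platform annotation gives 1 of these symbols: 18 of 1728 spots, at 6 of 576 printed positions, for 3 of the 142 genes named on the array. The 3 genes were chosen by their measured difference between fat and lean livers, known from an earlier look at these data. That difference is therefore given as a description, with no test of its own. The samples were RNA pools from livers of fat line chickens (pools 6 to 10) and lean line chickens (pools 1 to 5), each pool made from 4 birds. The labels used here state no age, sex, feeding or selection history for the birds. Each pool was hybridised on 3 cDNA arrays, or on 2 for pools 3 and 8, against one reference mixed from all 10 pools. In total 28 arrays were read, and the pool was the unit of replication (n = 5 per line).

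Each ribosome has a small subunit, which reads the mRNA, and a large subunit, which forms the peptide bonds. RPS25 and RPS4 proteins belong to the small subunit: RPS4 binds ribosomal RNA early in subunit assembly, and RPS25 is known in human and yeast cells for its part in initiation on certain viral internal ribosome entry sites. EEF1B2 is a subunit of the exchange factor that reloads elongation factor eEF1A with GTP, so that it can bring the next aminoacyl-tRNA to the ribosome. In vertebrates the mRNAs of ribosomal proteins and elongation factors share a pyrimidine tract at the 5′ end, through which mTOR signalling controls their translation together. Liver makes large amounts of protein, including the plasma proteins, and so holds many ribosomes. The chicken gene entry for RPS4Y1 also carries the names RPS4 and RPS4X. The Y in the symbol comes from mammals, since birds have Z and W sex chromosomes.

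All values are log2 ratios as deposited, likely sample (Cy5) over reference (Cy3), so that a positive difference means higher in the fat line. This direction rests on the order of the channels in the labels and is not stated with the values. Were the ratio inverted, all directions below would be opposite. A ratio to a reference gives no level, so RPS25, RPS4Y1 and EEF1B2 cannot be ranked by abundance. In RNA of whole liver, fewer cells of a type and less RNA per cell cannot be told apart.

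RPS25 stood at 3 positions with 3 different cDNAs. The cDNA at block 2, column 1 (the block 2 clone) had a value on 28 of 28 arrays and the one at block 8, column 9 (the block 8 clone) likewise on 28. The cDNA at block 8, column 11 had a value on 0 of 28 arrays and gives no result. RPS4Y1 stood at 1 position (block 7, column 7), with values on 14 fat and 11 lean arrays. EEF1B2 stood at 2 positions that carried the same cDNA, block 6, column 4 (the block 6 clone) and block 13, column 11 (the block 13 clone), each with values on 28 arrays. At the 5 positions with values, between 81.0% (RPS4Y1) and 92.9% (block 2 clone of RPS25) of the cells held a value. The share over all cells was 36.7%, but it also counts empty positions, such as block 8, column 11, and is no like measure. The 5 positions were among the 297 clones measured in 3 or more fat and 3 or more lean pools, over which the difference between the lines was fitted.

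In fat livers RPS4Y1 and both measured RPS25 clones had lower ratios than in lean livers, while EEF1B2 lay near 0 in its 2 clones. RPS4Y1 differed by -1.36 (standard error 0.48), the block 2 clone of RPS25 by -0.64 (standard error 0.26) and its block 8 clone by -0.41 (standard error 0.16). For EEF1B2 the difference was 0.04 (standard error 0.12) in the block 6 clone and -0.09 (standard error 0.20) in the block 13 clone. None of the 5 positions passed the limma test across all clones (Benjamini-Hochberg adjusted p under 0.05), where 0 of 297 clones were called, or 0%. At an unadjusted p under 0.05 there were 3 of the 5, against 28 of 297 clones in either direction (9.43%) and 13 lower in the fat line (4.38%). By over 0.4 on the log2 scale, 3 of the 5 were lower in the fat line, against 25 of 297 clones (8.42%). Because this contrast chose the genes, nothing is read from these counts. Over the 5 positions the median difference was -0.41, with 4 lower and 1 higher in the fat line, and over all 297 clones the median was 0.03, with 134 lower and 163 higher.

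RPS4Y1 stood at -0.12, -0.02, -1.07, -1.55 and -0.41 in fat pools 6 to 10, against 1.09, 2.21, 0.46, -0.57 and 0.46 in lean pools 1 to 5. All 5 fat pools lay below 0 and 4 of the 5 lean pools above it, but the lines overlapped, because lean pool 4 was lower than 3 of the fat pools. The means were -0.63 ± 0.66 in fat pools and 0.73 ± 1.02 in lean pools (SD, n = 5 each), so that the fat pools averaged 2.57-fold lower. The size of the RPS4Y1 difference hung on the lean pools at either end: it was -0.99 without pool 2 and -1.69 without pool 4. On first arrays alone it was -0.38, but without lean pool 2, the highest pool, which had no value on its first array. On the second array of each pool alone it was -1.29.

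**Figure D1:**
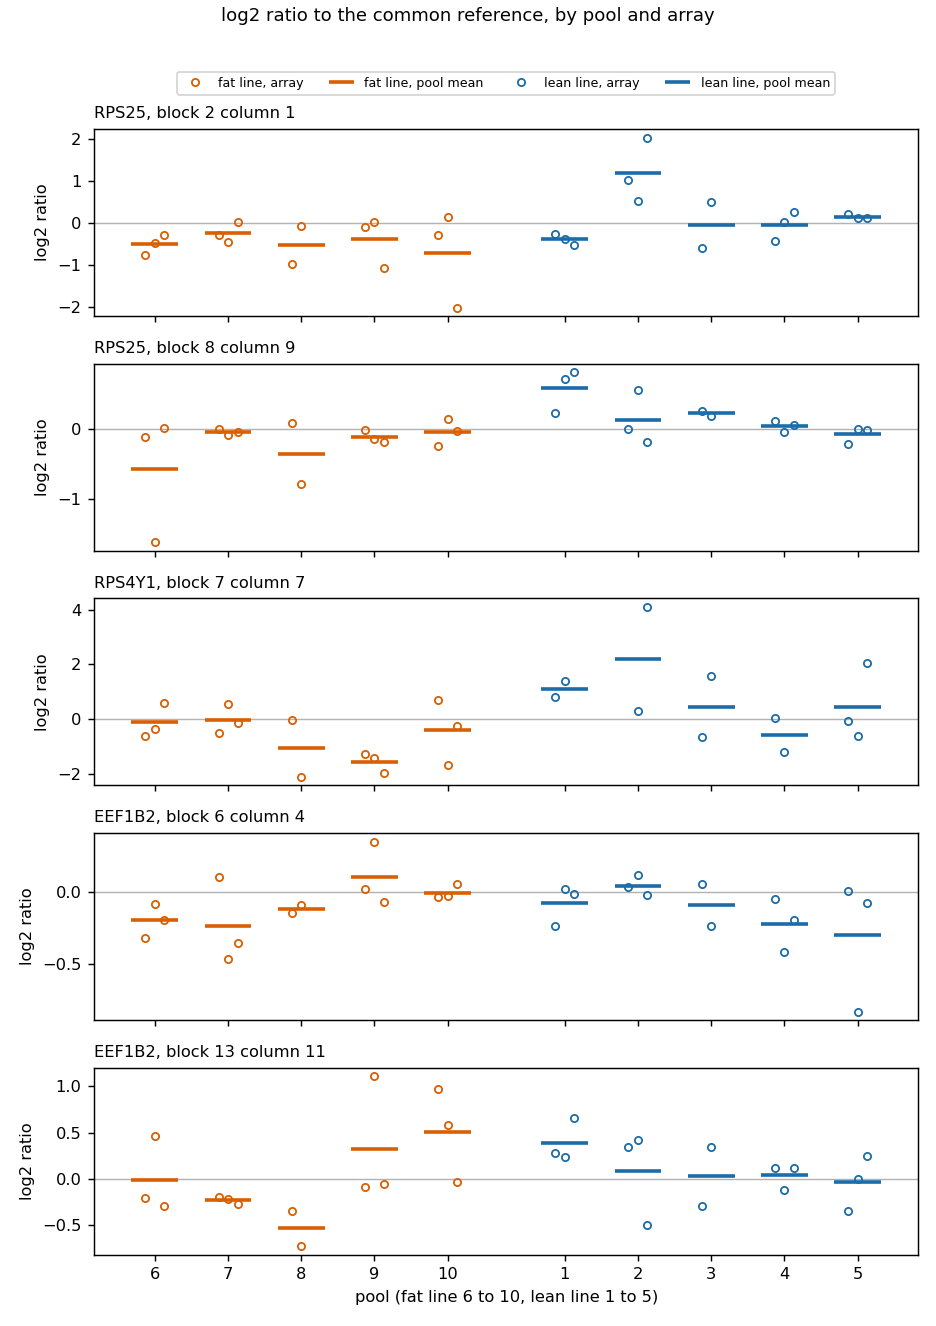
Log2 ratio to the common reference (vertical axes, a scale of its own for each panel) for the 5 measured positions of RPS25, RPS4Y1 and EEF1B2, by pool (horizontal axis, fat pools 6 to 10 left, lean pools 1 to 5 right). Circles are single arrays (mean over spots) and bars pool means; RPS4Y1 arrays of 1 pool lie far apart, as in lean pool 2 with 0.31 and 4.10, and in the EEF1B2 panels the fat and lean pools overlap, with fat pools from -0.54 to 0.51 around all lean pools in block 13.

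For RPS25 the block 2 clone read -0.51, -0.23, -0.52, -0.37 and -0.72 in fat pools 6 to 10, against -0.39, 1.19, -0.06, -0.05 and 0.15 in lean pools 1 to 5. The fat pools lay close together and all below 0 (mean -0.47 ± 0.18, SD, n = 5), whereas the lean pools spread widely (mean 0.17 ± 0.60, SD, n = 5) with pool 2 far above the rest and pool 1 among the fat pools. Without pool 2 the difference of this clone was -0.38, against -0.64 with all pools, and on the second array of each pool alone it was -0.32.

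The block 8 clone of RPS25, a different cDNA, read -0.57, -0.05, -0.36, -0.12 and -0.05 in fat pools 6 to 10, against 0.58, 0.13, 0.22, 0.04 and -0.08 in lean pools 1 to 5. Its averages were -0.23 ± 0.23 in fat pools and 0.18 ± 0.25 in lean pools (SD, n = 5 each). Here the highest lean pool was pool 1, the pool that was lowest among the lean pools in the block 2 clone. Lean pool 5 lay below 2 of the fat pools, so the lines overlapped in this clone too. With the first array of each pool alone the difference was -0.14, and with the second alone -0.78.

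Averaged over both clones, RPS25 stood between -0.54 (pool 6) and -0.14 (pool 7) in fat pools, against -0.003 (pool 4) to 0.66 (pool 2) in lean pools, and the lines did not overlap. Of the 80 named genes with values in all pools, 2 had every fat pool below every lean pool (2.5%), and of 232 single clones also 2 (0.862%), none of them at a position of RPS25, RPS4Y1 or EEF1B2. The gap between the lines in RPS25 is one of an average over 2 clones, each of which overlapped between them. This count, too, comes from the contrast that chose the genes.

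EEF1B2 in its block 6 clone read -0.20, -0.24, -0.12, 0.10 and -0.01 in fat pools 6 to 10, against -0.08, 0.04, -0.09, -0.22 and -0.30 in lean pools 1 to 5. These pool values lay between -0.30 and 0.10, and the lines interleaved. Its averages were -0.09 ± 0.14 in fat pools and -0.13 ± 0.13 in lean pools (SD, n = 5 each).

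The block 13 clone of the same cDNA gave -0.01, -0.23, -0.54, 0.32 and 0.51 in fat pools 6 to 10, against 0.39, 0.09, 0.03, 0.04 and -0.03 in lean pools 1 to 5. The fat pools held both the highest and the lowest value, and enclosed all lean pools. Its averages were 0.01 ± 0.42 in fat pools and 0.10 ± 0.17 in lean pools (SD, n = 5 each). Neither clone had a settled sign: the block 6 difference turned below 0 without pool 5 or pool 9, and the block 13 difference turned to 0.04 without pool 8.

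**Figure D2:**
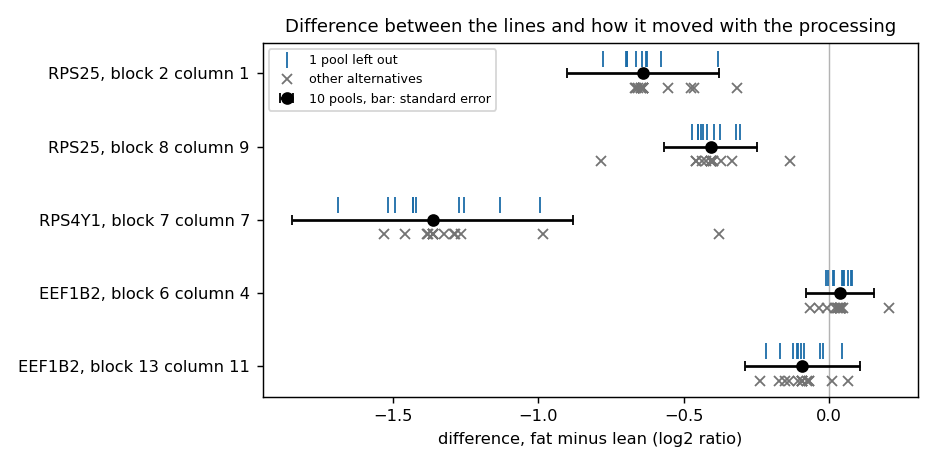
Fat minus lean difference in log2 ratio (horizontal axis) for each measured position, with its standard error (black), the values with 1 pool left out (blue ticks) and the other processing alternatives (grey crosses). RPS4Y1 and both RPS25 clones stayed below 0 in all alternatives drawn, while both EEF1B2 clones crossed 0. RPS4Y1 reached -0.38 on first arrays alone, where lean pool 2 had no value.

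Arrays of one pool carried the same RNA, so their spread shows the error of a measurement. In RPS4Y1 the spots of an array lay close together (SD 0.28, against a median of 0.33 over all 297 clones), but arrays of the same pool differed by far more (SD 1.19, against a median of 0.38). Ranked from the widest, RPS4Y1 was 208th of 297 clones by the spread of spots and 14th by the spread of arrays. Lean pool 2, the highest of all pools for RPS4Y1, rested on 2 arrays at 0.31 and 4.10, and on the second of these the 3 spots read between 3.42 and 4.59. Lean pool 3 held arrays at -0.65 and 1.56 and lean pool 5 arrays at -0.06, -0.61 and 2.04. Among the fat pools, pool 9 was low on all its arrays, at -1.27, -1.41 and -1.98, while pool 8 held -0.03 and -2.11 and pool 10 held 0.69, -1.67 and -0.25. RPS4Y1 arrays of a pool lay on both sides of 0 in 6 of 10 pools, against 5 in each RPS25 clone and 7 in each EEF1B2 clone.

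The block 2 clone of RPS25 also varied more between arrays (SD 0.58) than between spots of an array (SD 0.28). The array of lean pool 2 that was highest for RPS4Y1 was its highest too, at 2.04, with the other arrays of that pool at 1.03 and 0.52. Its lowest array was 1 of the 3 of fat pool 10, at -2.01, where the other 2 stood at -0.27 and 0.14. Without the high array of lean pool 2, a setting chosen after seeing the data, the difference was -0.56 for this clone and -0.98 for RPS4Y1. In the block 8 clone of RPS25 the SD was 0.39 between arrays and 0.36 between spots. An array value is a mean over up to 3 spots, so these SDs are not like measures, and near values do not mean equal error. The steadiest position was the block 6 clone of EEF1B2, with an SD of 0.22 between arrays and 0.14 between pools of a line, 267th and 275th of 297 from the widest.

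**Figure D3:**
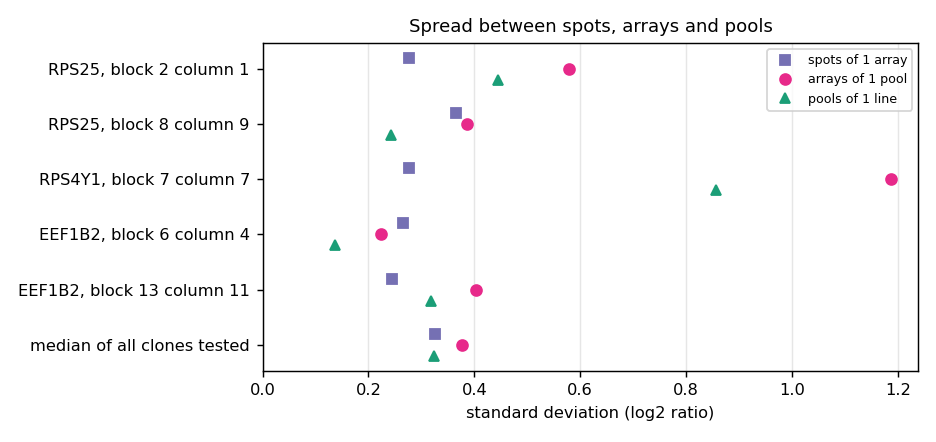
Standard deviation of the log2 ratio (horizontal axis) between spots of 1 array, arrays of 1 pool and pools of 1 line, for the 5 measured positions and as the median over all clones tested. RPS4Y1 has a common spread between spots (0.28) but 1.19 between arrays of the same RNA, and the block 6 clone of EEF1B2 is the narrowest between arrays and pools.

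Whether pools of one line, made from different birds, differed beyond the error between arrays is a question apart from the difference between the lines. In limma's F test over the arrays of a line, 0 of 5 positions passed in the fat line (0 of 202 clones, or 0%) and 0 of 5 in the lean line (1 of 189, or 0.529%). At an unadjusted p under 0.05 there were 0 of 5 in the fat line (46 of 202 clones, or 22.8%) and 1 of 5 in the lean line (30 of 189, or 15.9%). That 1 was the block 2 clone of RPS25, where lean pool 2 stood at 1.19 and the other lean pools between -0.39 and 0.15 (limma F test, unadjusted p = 0.00742, adjusted p = 0.120). Lean pool 2 also enlarged the difference between the lines in this clone, which was -0.38 without it, so here the 2 questions are not fully apart. For RPS4Y1, the member whose pools lay farthest apart, the F test gave an adjusted p of 0.347 in the fat line and 0.544 in the lean line with limma, and its pools could not be told apart beyond the error between arrays.

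To see whether the 3 genes go together across pools, each pool value was taken as its deviation from the mean of its line. This removes the difference between the line means, but not all of the choice of genes. Lean pool 2, far above its line, entered both: without it the differences were -0.99 for RPS4Y1 and -0.38 for the block 2 clone of RPS25. RPS25 and RPS4Y1 had a within-line Pearson r of 0.62 and a Spearman rho of 0.42 over 10 pools (two-sided exact permutation of pools within lines, p = 0.133 and 0.260, adjusted over the 3 gene pairs 0.398 and 0.634). Their deviations had the same sign in 6 of 10 pools. RPS25 and EEF1B2 had an r of 0.20 and a rho of 0.32 (exact permutation p = 0.518 and 0.423, adjusted 0.776 and 0.634), with the same sign in 7 of 10. RPS4Y1 and EEF1B2 had an r of 0.09 and a rho of 0.07 (exact permutation p = 0.776 and 0.866, adjusted 0.776 and 0.866), with the same sign in 7 of 10. None of the 3 pairs passed. Over all pairs of the 232 clones with 10 pools, the median r was 0.005, and the quartiles lay at -0.28 and 0.29.

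The r of RPS25 and RPS4Y1 rested on lean pool 2, and within it on 1 array. It was 0.09 without pool 2 and 0.03 without the third array of that pool (adjusted exact permutation p = 0.973 and 0.959). On that array RPS4Y1 and the block 2 clone of RPS25 were high, while the block 8 clone of RPS25 stood at -0.18. With both genes taken from different arrays of a pool, so that no array entered both values, r was -0.10 over 9 pools (adjusted exact permutation p = 0.758). The pool lost was lean pool 2, where RPS4Y1 had no value on the first array. This r therefore cannot be told apart from leaving out pool 2, and does not show the part of shared array error. Leaving out pools 2 and 6 gave an r of 0.42. They were the farthest from the median of RPS25 before the line mean was taken out. In deviations from the line mean, pool 7 at 0.21 was more extreme than pool 6 at -0.19. Without pool 6 alone r was 0.76, so the 0.42 does not show that r holds without extreme pools. The same choice gave 0.09 for RPS25 and EEF1B2. RPS4Y1 and EEF1B2 without pools 2 and 9, chosen likewise from RPS4Y1, gave 0.38. Between single clones, the block 2 clone of RPS25 had an r of 0.55 with RPS4Y1 and the block 8 clone 0.14. With the median over arrays in place of the mean, r was 0.72 for RPS25 and RPS4Y1 and 0.60 for RPS25 and EEF1B2 (adjusted exact permutation p = 0.0625 each). In lean pool 2, however, RPS4Y1 had a value on only 2 arrays, whose median is their mean. Its array at 4.10 thus kept its full weight, and the 0.72 does not show an r free of that array. At the level of arrays, deviations from the pool mean of the block 2 clone and RPS4Y1 had an r of 0.23 over 25 arrays, as a description.

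**Figure D4:**
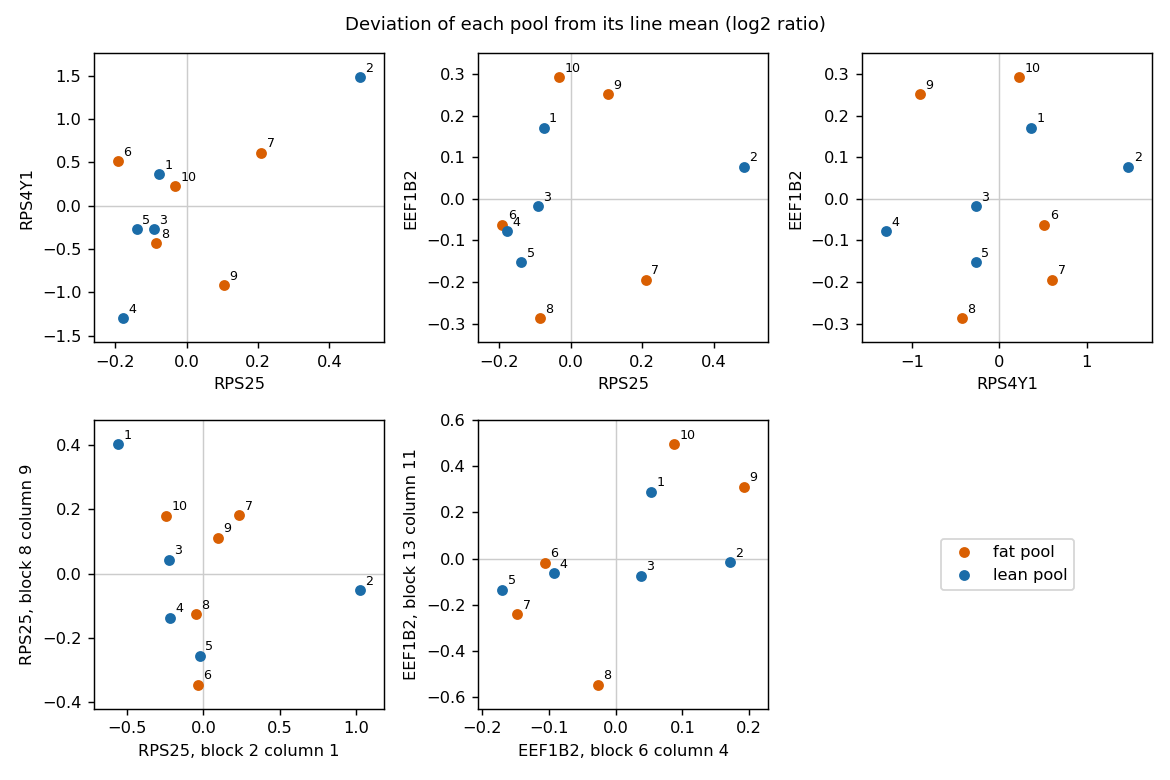
Deviation of each pool from the mean of its line in log2 ratio (both axes, a scale of its own for each panel) for the 3 gene pairs (top) and for the clones of RPS25 and of EEF1B2 (bottom); numbers are pools, fat in orange and lean in blue. Lean pool 2 stands farthest to the upper right in RPS25 against RPS4Y1 (r = 0.62 with it, 0.09 without it), and within-line r was -0.26 between the RPS25 clones and 0.56 between the EEF1B2 clones, neither of which passed.

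The 2 measured clones of RPS25 did not follow each other within the lines. Their deviations had an r of -0.26 and a rho of -0.24 over 10 pools (exact permutation p = 0.491 and 0.533, adjusted over the 10 pairs of positions 0.763 and 0.825). Without pools 2 and 5, r was -0.27. Those pools were the farthest from the median of the block 2 clone before the line mean was taken out. That choice kept lean pool 1, at -0.39 in the block 2 clone and 0.58 in the block 8 clone. It therefore does not show what r is without pool 1. Over 37 such pairs of clones with 1 gene symbol but different cDNAs, the median r was 0.33. The clones of EEF1B2, which carry 1 cDNA, had an r of 0.56 and a rho of 0.73 (exact permutation p = 0.129 and 0.0370, adjusted 0.582 and 0.370). Without pools 5 and 9, chosen in the same way from the block 6 clone, their r was 0.43. The median over 27 pairs with the same cDNA was 0.48. Both clones of RPS25 were lower in the fat line, yet the pool farthest from the mean of its line was lean pool 2 in the block 2 clone and lean pool 1 in the block 8 clone, and pool 1 lay below its line in the one and above it in the other.

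Whether a spot gave a value at all is a measure other than the log2 ratio whose difference chose the genes. It is not fully apart from that choice, since the difference could be taken only from filled spots. RPS4Y1 spots were filled on 92.2% ± 10.8 of occasions in fat pools and on 70.0% ± 24.7 in lean pools (mean ± SD over pools, n = 5 each, 3 spots), and 3 lean arrays had no value (two-sided exact permutation p = 0.135, adjusted over the 3 genes 0.405). RPS25 spots were filled on 88.9% ± 7.86 in fat and 91.7% ± 10.4 in lean pools (6 spots, exact permutation p = 0.698, adjusted 0.698). The 3 RPS25 spots at block 8, column 11, with a value on 0 of 28 arrays, were left out of this share. EEF1B2 spots were filled on 93.3% ± 7.24 in fat and 88.9% ± 5.56 in lean pools (6 spots, exact permutation p = 0.421, adjusted 0.631). None of the 3 differences passed the exact permutation test. The gap of RPS4Y1, 22.2 percentage points over all arrays, was 13.1 without lean pool 1 and 6.67 on second arrays only. The lean means of RPS4Y1 thus rest on fewer values: 4 of the 5 lean pools had 2 arrays with a value, 1 of them (pool 3) because only 2 were made.

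The clones whose deviations were most like those of each gene within the lines came from several kinds of genes, out of 227 clones compared over 10 pools. For RPS4Y1 the highest r were 0.81 for ORM1, an acute phase plasma protein, 0.77 for PYGL, the liver glycogen phosphorylase, and 0.72 for AvBD8, a beta-defensin, with 2 clones without a gene name at 0.72. RPS25 was nearest to TSPAN12, a tetraspanin, at 0.81, then to a clone without a name at 0.73, AvBD8 at 0.68, ORM1 at 0.62 and LOC423629 at 0.61. EEF1B2 was nearest to a clone without a name at 0.84, then to PSPH, an enzyme of serine synthesis, at 0.78, PIN4, a peptidyl-prolyl isomerase, at 0.75, PNPLA3 at 0.72 and ACAT1 at 0.66. The most opposed were SLC25A20, the mitochondrial carnitine carrier, at -0.92 and SLC27A2, a fatty acid transporter, at -0.76 for RPS25. For RPS4Y1 they were clones without names at -0.91 and -0.85, and for EEF1B2 likewise at -0.96 and -0.84. As the extremes of 227 clones over 10 pools these are a description, and clones read on the same array share its error.

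Of the wider translation machinery, EIF4EBP1 and RPS6KB1 were the 2 genes of the translation list that the array named beside those described above. Both are targets of mTOR, EIF4EBP1 as a repressor of cap-dependent initiation and RPS6KB1 as the kinase of ribosomal protein S6. EIF4EBP1 averaged -0.02 ± 0.37 in fat pools and 0.08 ± 0.13 in lean pools in one clone (SD, n = 5 each). Its other clone averaged 0.20 ± 0.29 in fat pools and -0.12 ± 0.16 in lean pools (SD, n = 5 each). The fat minus lean values of the clones, -0.10 (standard error 0.18) and 0.32 (standard error 0.16), differed in sign, but the first lay within its standard error of 0. RPS6KB1 was -0.19 ± 0.69 in fat pools and -0.44 ± 0.43 in lean pools (SD, n = 5 each), and thus 0.25 higher in the fat line with a standard error of 0.33, on 19 arrays with a value. RACK1, a scaffold protein on the small subunit that was added after its values were seen, was 0.39 ± 0.34 in fat pools and 0.47 ± 0.17 in lean pools (SD, n = 5 each), and its fat minus lean value was -0.07 with a standard error of 0.17. Of the 2 listed genes, 0 passed the limma test across all clones in either direction, nor did RACK1.

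Over the whole array, 450 to 741 spots had a value on fat arrays and 540 to 737 on lean arrays, and arrays of the same pool had a median Pearson r of 0.21 over 26 pairs. Of 17 hepatocyte markers listed, 9 had values, 5 higher and 4 lower in the fat line with a median difference of 0.03, and ALB, the defining one, had a value in 0 cells. The mean over the tested clones of these markers ran from -0.32 to 0.23 in fat pools and from 0.02 to 0.39 in lean pools. It weighs each clone alike, whereas the counts and the median difference are per gene. Markers of erythrocytes, leukocytes, stromal, bile duct and fat cells had 0 named spots, so the part of cell makeup in the results was not tested.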

How the data were processed

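Poly(A)+ RNA of each liver pool was labelled with Cy5 and the common reference with Cy3 on every array, per the labels' protocols, so no array has the dyes swapped. The authors deposited 1 log2 ratio per spot and array. How they scanned, filtered and normalized is not given in the sources used here. Base 2 was inferred from the highest value of 14.01, above the 11.1 of a natural log and the 4.82 of a log10 ratio of a 16-bit scanner. Array medians lay between -0.06 and 0.07, so arrays were taken as centred. The lowest Pearson r of 2 arrays was -0.27.

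Spot IDs were read as block, column and row, and spots 3 rows apart as 1 clone, which the annotation bears out at 206 positions. Values were averaged over spots, then over arrays of a pool, and missing values stayed missing. Differences are fat minus lean from limma 3.58.1 in R 4.3.3 over 297 clones, with Benjamini-Hochberg adjustment. The F test used arrays of 1 line, for clones with at least 2 arrays in every pool. Correlations used SciPy 1.17.1 and NumPy 2.4.6, with 14400 exact permutations for 10 pools. Each step was tested on simulated data. For limma the simulated differences between lines and between pools were larger than those of the 5 positions, so whether smaller ones would be called was not tested. Nothing says how the pools relate beyond their birds. The p-values of the line contrast, the correlations and the filled spots rest on the spread between pools. Those of the F test set the spread between pools against that between arrays. The number of pools, 5 per line, limits the precision, and in the F test the number of arrays does too. No genome build is named, so no coordinates are given, and gene names were looked up in the GRCg7b annotation.

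Members and lists were chosen with earlier results of these data known. Named genes are the members, the listed translation genes, and the 5 most and 2 least alike clones of each member. Alternatives were single pools or arrays, medians, quantile normalization, centring, filters, and arrays as observations. Leaving out array 3 of pool 2, and spots at exactly 0, were chosen after seeing the data.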

Additional observations from a re-analysis of the deposited data

Results flagged for a closer look

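EEF1B2 in its block 13 clone stood at 0.39 in lean pool 1, apart from the other 4 lean pools at -0.03 to 0.09 by more than Dixon's critical value for groups of 5. In the block 6 clone of the same cDNA that pool stood at -0.08, within the other lean pools. It was the 1 value so marked among 16 groups checked, where chance marks about 1 in 20. The average over both RPS25 clones was not among these groups. In it, lean pool 2 at 0.66 also stood apart from the other lean pools, at -0.003 to 0.10.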

How the results depend on the processing

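RPS25 and RPS4Y1 stayed lower in the fat line in each of the 24 alternatives run for their 3 clones. The SD between pools of a line was 0.86 for RPS4Y1 and 0.45 for the block 2 clone of RPS25, which is wide beside their differences. Of 120 alternatives over the 5 positions, 116 moved a difference by less than 1 such SD, among them the move of the block 2 clone from -0.64 to -0.32. The other 4 were RPS25 in block 8 (-0.14 on first arrays only, -0.78 on second arrays only), RPS4Y1 (-0.38 on first arrays only) and the block 6 clone of EEF1B2 (0.20 on second arrays only). For RPS4Y1 the first arrays lacked lean pool 2, its highest pool, which had no value there. With 1 pool left out, RPS25 lay between -0.78 and -0.38 in block 2 and between -0.47 and -0.31 in block 8, and RPS4Y1 between -1.69 and -0.99. EEF1B2 had no settled sign: its block 6 clone also turned on first arrays only, with the median over arrays and with quantile normalization, and its block 13 clone on first or second arrays only.

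Clones called between the lines numbered 0 on pool values, 5 with arrays as observations and the correlation within pools, and 6 with a replicate block for the array number, where RPS4Y1 differed by -1.46 and RPS25 by -0.65 and -0.40. The pools carry numbers of their own in each line, and arrays of the same number did not deviate together (r between the lines 0.03, -0.18 and -0.10). The labels do not say whether arrays of 1 number were run together, and these r cannot decide it. The replicate block called none of the 5 positions.

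The r of RPS25 and RPS4Y1 turned to -0.184 on first arrays, -0.0315 on second arrays and -0.100 with different arrays for each gene. None of these settings used the third array of lean pool 2, on which the main r rested. In both pairs with RPS4Y1, first arrays and different arrays covered 9 pools, without lean pool 2. With 1 pool left out the r of RPS25 and RPS4Y1 ran from 0.09 (pool 2) to 0.78. RPS4Y1 and EEF1B2 turned to -0.0194 without array 3 of pool 2 and -0.0856 with different arrays, and ran from -0.0205 to 0.377 with 1 pool left out, below 0 without pool 2 or pool 8. RPS25 and EEF1B2 turned to -0.10 with the block 2 clone of RPS25 in place of the gene mean. Other settings raised r without a call: RPS25 and EEF1B2 had 0.60 with the median over arrays, 0.55 with the block 8 clone of RPS25 and 0.51 with the block 6 clone of EEF1B2, and RPS4Y1 and EEF1B2 had 0.57 on first arrays and 0.38 with the median over arrays. Clones varying between pools numbered 0 to 2 in the fat line and 0 to 3 in the lean line with 1 pool left out, 1 in the fat line with arrays centred on the median, and in the lean line 2 without spots beyond 5 and 0 without array 3 of pool 2. The share of RPS25 spots with a value was 3.33 percentage points higher in the fat line on second arrays only, against -2.78 on all arrays. The cause of these changes was not tested. The spread between arrays and the number of pools limit what can be told apart.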

Other observations

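In the block 8 clone of RPS25, 10 of 75 spot values were exactly 0 (13.3%), against 327 of 17749 values over the table (1.84%). No other of the 297 clones tested held as many, and the median clone held 1. They fell on 7 arrays of both lines, and all 3 spots of the first array of lean pool 2 read 0. The block 2 clone of RPS25 and RPS4Y1 had 0 such values. Without values at exactly 0 the block 8 clone differed by -0.46, against -0.41 with them, a setting chosen after seeing the data.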
